A study of Mus musculus with 32 samples.

Results

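The S100 proteins are small calcium-binding proteins. Probes were taken as members where their gene name on the array was S100a1, S100a3, S100a4, S100a6, S100a8, S100a9, S100a10, S100a11, S100a13 or S100a16, which gave 10 genes and 13 probes among 34821 gene names and 55681 probes. S100a1, S100a4 and S100a16 had 2 probes each, and a gene was described by the probe that varied most over the channels. The levels were measured in a mouse model of liver metastasis of colorectal cancer (CRC). Male Balb/c mice of 6 to 8 weeks received C26 cells, a colon carcinoma line of the same strain, into the spleen, while control mice received PBS. After 14 days (15 in a legend of the study) liver cells were separated by collagenase perfusion, density gradients and adherence, kept in culture for up to 24 h, and their RNA was hybridized to two-colour Agilent arrays.

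Each of 8 groups held 4 samples. Control mice gave endothelial (EC), Ito (IC) and Kupffer (KC) cells, and tumor-bearing mice gave the same cell types from the tumor microenvironment (TME), called ET, IT and KT. The other groups were tumor liver metastasis cells (TM) and CRC primary cells (TP). Ito (stellate) cells store vitamin A beside the sinusoids, and Kupffer cells are macrophages that live in the sinusoids. The methods name 1 injected cell line, C26, and the labels do not describe further how the TM and TP cells were obtained.

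S100 proteins usually work as dimers and carry a pair of EF hands, the helix-loop-helix folds that hold calcium. On binding calcium most of them expose a surface that grips a partner, such as an annexin or a myosin. S100a8 and S100a9 form calprotectin, which neutrophils and monocytes hold in large amounts and which signals outside the cell through Tlr4 and the receptor Ager (RAGE). S100a4 is known from metastatic cells and binds the non-muscle myosin Myh9, S100a6 binds Cacybp, S100a10 is the partner of annexin A2, and S100a11 binds annexin A1.

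The arrays read the family through probes of 60 bases. All 13 probes lie on chromosome 3 of the mm9 build, as annotated in the scanner output, and the outermost bases are 90314959 and 93368496. In 4 of the 13 probes the coding bases of the second EF hand are visible. They are shown because they mark the domain that defines the family, with capitals on the 9 bases that match TTCNNGGAG in a reading frame with no stop codon. As background, these bases encode the last residues of the calcium loop. The letters were chosen from these probes and searched on the strand printed, and 0.228% of the 55681 probes hold them in such a frame. A match by itself is only a description. The probes of S100a6 (chr3:90418160-90418219, plus strand) and S100a8 (chr3:90473778-90473837, plus strand) are the ones whose levels are given here. The probes of S100a1 (chr3:90315191-90315250, minus strand) and S100a4 (chr3:90409734-90409793, plus strand) are the second probes of their genes.
S100a1: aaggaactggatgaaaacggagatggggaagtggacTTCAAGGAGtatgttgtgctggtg
S100a4: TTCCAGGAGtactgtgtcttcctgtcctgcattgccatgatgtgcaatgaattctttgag
S100a6: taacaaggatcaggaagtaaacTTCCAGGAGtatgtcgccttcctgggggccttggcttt
S100a8: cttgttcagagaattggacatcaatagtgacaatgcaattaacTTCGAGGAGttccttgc

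The 32 channels of 16 arrays were read singly, with 38.4 to 57.1% of 59305 spots well above background and none saturated. Levels are log2 of the deposited quantile-normalized intensity, and differences between groups come from limma with Benjamini-Hochberg adjustment over all 55681 probes, called at an adjusted p under 0.05. Control cells and TM were always labelled with Cy3, and TME cells and TP with Cy5, so dye and condition cannot be told apart in those comparisons. Endothelial and Ito samples lay on slide 1, and Kupffer and tumor samples on slide 2. Replicate 4 of the Ito and Kupffer arrays stood apart. Across 17105 probes, its TME minus control difference correlated at -0.66 (Ito) and -0.60 (Kupffer) with the mean difference of the other 3 arrays. Labels were kept as given, and many of the differences are printed with and without these 4 channels. These channels stand out by the same TME minus control difference that is then fitted without them. The adjusted p-values of the Ito and Kupffer comparisons without them are therefore descriptive. Where no other group is named, a value without replicate 4 leaves out these 4 channels only. Whether labels or dyes were exchanged on these arrays was not tested. The labelled cell types were only partly separated by their markers. All 8 endothelial and all 8 Kupffer markers on the array were well above background on every array of all 6 liver groups, and the summed Ito markers ran from 17.93 to 18.32 in EC and from 17.02 to 18.11 in IC. In KC and KT the Ito sums of 16.24 to 16.68 lay below every endothelial and Ito sample, of which the lowest was 16.85 in IT. The study reported, from immunostaining, that every cell fraction was highly pure. Where a sample holds more than 1 cell type, more cells of a type and more RNA per cell cannot be told apart.

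In the liver cells, 4 of the 10 genes, picked out after their values were seen, shared a pattern. S100a8, S100a9, S100a4 and S100a6 were brighter in the TME channel on all 4 endothelial arrays and on arrays 1 to 3 of the Ito and Kupffer cells, and dimmer on array 4 of both. None of the 10 genes was called in any of the 3 TME comparisons with all samples in the limma fit, against 1.14% of all probes called for ET against EC, 0.289% for IT against IC and 0.436% for KT against KC. At an unadjusted p under 0.05 there were 4 (S100a4, S100a8, S100a9 and S100a13), 1 (S100a6) and 0 members, against 7.71%, 9.88% and 7.37% of all probes. The methods' probe-by-probe test called 2, 0 and 0, against 4.01%, 2.22% and 0.088% of all probes. Without replicate 4 of the Ito and Kupffer cells, 2, 4 and 1 members were called, all higher in the TME, against 1.64%, 7.66% and 3.85% of all probes. The Ito and Kupffer calls of that fit are descriptive, since the channels left out stand apart by the difference tested. S100a4, S100a8 and S100a9 were named by the study from these samples, so their direction here is not independent evidence.

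S100a8 encodes the smaller subunit of calprotectin. Its levels in EC replicates 1 to 4 were 8.02, 7.72, 7.59 and 8.03, and in ET they were 11.25, 11.64, 10.53 and 11.03. The groups did not overlap, and the lowest ET sample (10.53) was far above the highest EC sample (8.03). The means were 7.84 ± 0.22 (SD, n = 4) and 11.11 ± 0.46 (SD, n = 4), a difference of 3.27 ± 0.85 (SE) or 9.66-fold, with a limma adjusted p of 0.059. The call depended on the setting. The same difference had an adjusted p of 0.00411 without replicate 4 of the Ito and Kupffer cells (SE 0.62), 0.0255 without TM replicate 4, and 0.000571 when only the EC and ET samples were fitted (SE 0.23). With all samples kept, it was called with a filter on dim probes (adjusted p = 0.031), with normexp and quantile normalization (adjusted p = 0.0216) and with normexp and loess (adjusted p = 0.0109).

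Markers of other cells differed between the same samples. The summed Kupffer markers ran from 15.19 to 15.82 in EC and from 15.97 to 16.60 in ET, and the summed endothelial markers from 15.71 to 15.85 in EC and from 14.77 to 15.43 in ET, while 0 of the 8 genes of either list were called. The summed Ito markers ran from 17.93 to 18.32 in EC and from 17.19 to 17.90 in ET. None of these 3 sums overlapped between the groups. In ET replicates 1, 3 and 4 the hepatocyte sum was 13.99 to 14.10, against 15.09 to 15.33 in EC. Their epithelial sum was 11.10 to 11.18, against 12.66 to 12.73 in EC, and their erythroid sum 8.63 to 10.34, against 10.95 to 12.10. For these lists ET replicate 2 stood apart, at 15.24, 13.56 and 14.88. In Ito cells the Kupffer sum was 16.39, 16.70, 16.39 and 18.68 in IC and 18.41, 14.45, 18.40 and 16.55 in IT. In Kupffer cells it was 17.32, 17.31, 16.18 and 18.96 in KC and 18.43, 18.48, 18.48 and 17.43 in KT. Replicate 4 was turned in both cell types, and in Ito cells the sum of replicate 2 was also lower in IT than in IC. Further marker sums differed in Ito cells. The hepatocyte sum was 17.32, 17.57, 17.42 and 18.94 in IC and 18.70, 17.46, 18.67 and 17.48 in IT, and the erythroid sum was 15.20, 15.17, 15.28 and 17.10 in IC and 17.04, 15.91, 16.78 and 15.23 in IT. The endothelial sum ran the other way, at 15.25, 15.27, 15.21 and 14.39 in IC and 14.27, 13.65, 14.49 and 15.34 in IT. The hepatocyte sum was lower in IT in replicates 2 and 4. The erythroid and endothelial sums were separated in replicates 1 to 3 and turned in replicate 4. In Kupffer cells the endothelial sum was 14.91, 14.92, 14.49 and 14.35 in KC and 14.31, 14.29, 14.32 and 14.93 in KT. The epithelial sum was 9.10, 9.06, 9.37 and 7.80 in KC and 7.72, 7.69, 7.95 and 9.21 in KT. The erythroid sum was 13.50, 13.31, 13.73 and 13.22 in KC and 13.16, 13.10, 13.18 and 13.32 in KT. All 3 were lower in KT in replicates 1 to 3 without overlap, and turned in replicate 4. The part of these cells in the S100a8, S100a9, S100a4 and S100a6 levels was not tested.

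In Ito cells S100a8 stood at 8.58, 8.50, 8.42 and 12.04 in IC and at 12.12, 11.88, 11.44 and 8.42 in IT. Replicate 4 of IC lay among the IT samples and replicate 4 of IT lay among the IC samples, so the groups overlapped. The difference was 1.58 ± 0.85 (SE) with an adjusted p of 0.554, and without replicate 4 it was 3.31 ± 0.71 (SE), 9.91-fold, with an adjusted p of 0.00525. In Kupffer cells, KC gave 10.56, 10.56, 10.98 and 12.25 and KT gave 12.02, 12.13, 12.12 and 10.73. Replicates 1 to 3 did not overlap and replicate 4 was again turned. The Kupffer difference of 0.66 ± 0.85 (SE, adjusted p = 0.96) became 1.39 ± 0.71 (SE, adjusted p = 0.362) without replicate 4 of the Ito and Kupffer cells. It was called at 1.39 ± 0.31 (SE, adjusted p = 0.0195) when replicate 4 of all 8 groups was left out.

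S100a9, the larger calprotectin subunit, followed the same pattern at a wider range. EC gave 8.80, 7.73, 7.75 and 8.86 and ET gave 11.84, 11.74, 10.57 and 11.47, with no overlap and a difference of 3.12 ± 1.26 (SE, adjusted p = 0.419). The difference was called when only EC and ET were fitted (adjusted p = 0.00484) and by the methods' probe-by-probe test (adjusted p = 0.0181). S100a9 read 1.85, 1.85, 1.86 and 8.82 in the 4 TM samples, and without TM replicate 4 the standard error was 0.95 (adjusted p = 0.15). With replicate 4 of the Ito, Kupffer and TM groups all left out, an alternative chosen after the values were seen, the standard error was 0.29 and the adjusted p was 1.4e-06.

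IC gave S100a9 levels of 8.55, 8.09, 8.07 and 13.20, and IT gave 13.01, 12.52, 12.27 and 8.81. The highest single S100a9 value of the 32 channels was thus in a sample labelled control. The difference was 2.17 ± 1.26 (SE, adjusted p = 0.577), and 4.36 ± 1.10 (SE), 20.5-fold, without replicate 4 of the Ito and Kupffer cells (adjusted p = 0.0165). KC gave 9.79, 9.73, 9.86 and 12.84 and KT gave 12.56, 12.61, 12.42 and 9.78. Replicates 1 to 3 were tight in both groups, and the KT sample of array 4 had the level of the KC samples of arrays 1 to 3. The Kupffer difference rose from 1.29 ± 1.26 (SE, adjusted p = 0.918) to 2.74 ± 1.10 (SE, adjusted p = 0.199) without replicate 4 of the Ito and Kupffer cells. It was called at 2.74 ± 0.30 (SE, adjusted p = 5.38e-05) when replicate 4 of all 8 groups was left out.

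**Figure D1:**
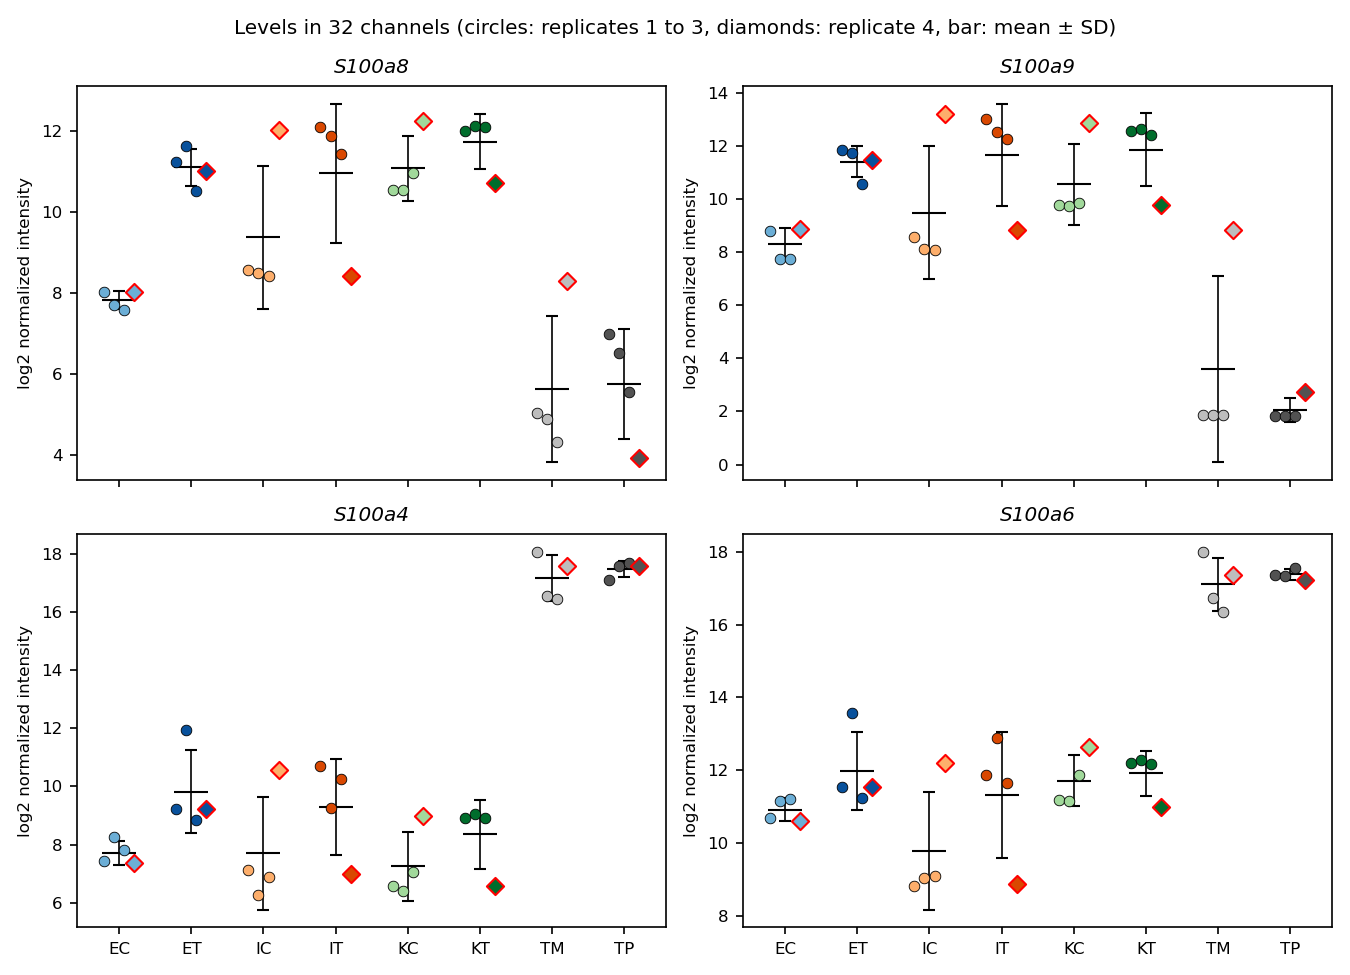
Log2 normalized intensity of S100a8, S100a9, S100a4 and S100a6 in the 8 groups (x axis), with circles for replicates 1 to 3, red-edged diamonds for replicate 4 and a bar for the mean ± SD of 4 samples. In the IC, IT, KC and KT columns the diamonds sit with the opposite condition's circles, while S100a4 and S100a6 in TM and TP lie above all liver samples.

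The calprotectin genes moved together sample by sample. Over the 24 liver channels the Pearson r between S100a8 and S100a9 was 0.95, and over the 20 without replicate 4 of the Ito and Kupffer cells it was 0.95. After subtraction of the group means it was 0.81 over those 20. These are descriptions, since the channels share arrays and slides. The tumor samples departed from the line: S100a8 read 7.0, 6.52, 5.56 and 3.94 in TP while S100a9 read 1.82, 1.82, 1.84 and 2.74 there, not well above background on any of the 4 arrays.

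**Figure D2:**
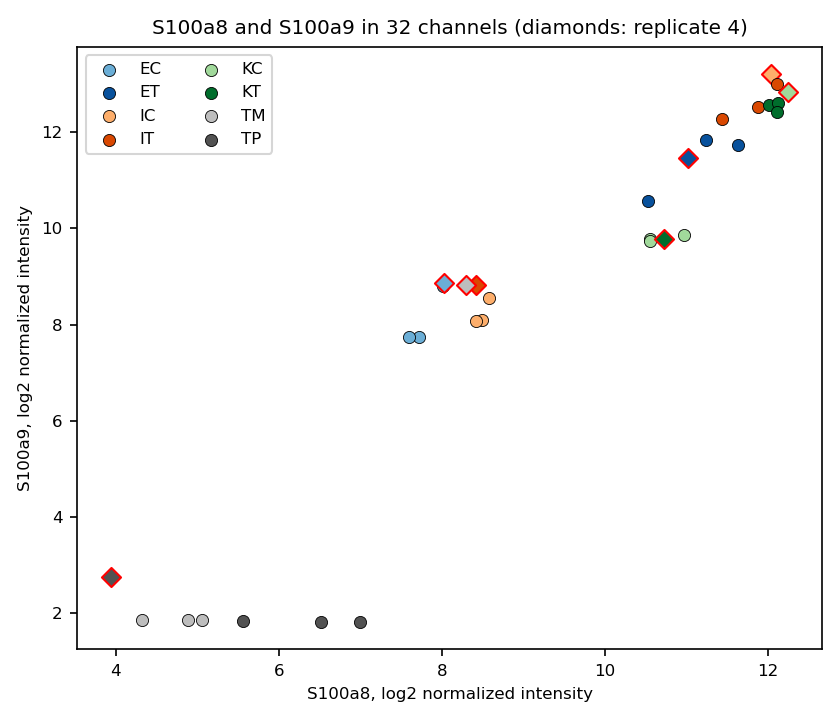
S100a9 against S100a8, both as log2 normalized intensity, one point per channel and coloured by group, with red-edged diamonds for replicate 4. The liver channels fall on one line from about the EC samples (S100a8 7.59 to 8.03) up to KC replicate 4 at 12.25 and 12.84, and the TM diamond at 8.30 and 8.82 lies among the control liver cells rather than with the other TM samples.

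Since S100a8 and S100a9 move together, their promoter windows are shown, from RefSeq on GRCm38.p6, each running from 250 bases before to 50 after the annotated start. 9 of the 10 genes matched an entry in the table. A set of 5 short motifs was searched on both strands, and capitals mark the hits: TATAAA (the core promoter element, in 13.6% of all 32851 windows), TTGCNNAA (the core that C/EBP factors read, 10.8%), TGANTCA (AP-1, 7.81%), TTCNNNGAA (STAT, 8.30%) and GGGCGG (GC box, 35.7%). S100a8 (chr3:90668821-90669120, plus strand) holds TATAAA at -30. S100a9 (chr3:90695672-90695971, minus strand) holds TATAAA at 1, TTGCNNAA at -236 and GGGCGG at -223.
S100a8: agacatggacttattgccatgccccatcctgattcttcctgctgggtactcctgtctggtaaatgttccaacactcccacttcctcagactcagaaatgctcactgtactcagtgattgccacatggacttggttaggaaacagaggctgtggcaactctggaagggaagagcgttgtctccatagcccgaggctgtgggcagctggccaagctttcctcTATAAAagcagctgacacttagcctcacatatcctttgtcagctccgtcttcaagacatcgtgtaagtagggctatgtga
S100a9: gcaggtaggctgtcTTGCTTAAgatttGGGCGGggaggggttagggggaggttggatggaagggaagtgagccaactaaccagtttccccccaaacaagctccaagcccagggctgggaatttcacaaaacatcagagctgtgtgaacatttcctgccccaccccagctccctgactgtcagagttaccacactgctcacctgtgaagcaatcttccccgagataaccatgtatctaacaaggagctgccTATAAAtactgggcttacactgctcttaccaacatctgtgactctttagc

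TATAAA also lies at -31 of S100a4 (chr3:90603520-90603819), and in all 4 of the 9 member genes with an entry had it in at least 1 window, 1 had TTGCNNAA, 2 had TGANTCA, 0 had TTCNNNGAA and 4 had GGGCGG. The S100a6 window held none of the 5. The windows of S100a1 and S100a13 overlap by 204 bases on opposite strands. A match is not a measured binding site.

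S100a4, also called metastasin, read 7.44, 8.27, 7.82 and 7.37 in EC and 9.23, 11.96, 8.86 and 9.23 in ET. The groups did not overlap, and ET replicate 2 lay far above the other 3. The difference was 2.10 ± 0.85 (SE), 4.28-fold, with an adjusted p of 0.422, and 0.0273 without replicate 4 of the Ito and Kupffer cells (SE 0.49). Without replicate 2 of all groups it was 1.57 ± 0.98 (SE, adjusted p = 0.95). ET replicate 2 also had the highest sum of erythroid markers (14.88, against 8.63 to 10.34 in the other ET samples), epithelial markers (13.56, against 11.10 to 11.18) and hepatocyte markers (15.24, against 13.99 to 14.10), with the lowest endothelial sum (14.77, against 15.30 to 15.43) and the lowest Ito sum (17.19, against 17.35 to 17.90). Their part in its S100a4 level was not tested.

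Ito cells gave S100a4 levels of 7.12, 6.26, 6.88 and 10.57 in IC and 10.70, 9.26, 10.24 and 6.98 in IT. Kupffer cells gave 6.57, 6.40, 7.04 and 8.99 in KC and 8.90, 9.05, 8.90 and 6.56 in KT. In both cell types replicates 1 to 3 were separated and replicate 4 was reversed. Without replicate 4, S100a4 rose by 3.32 ± 0.57 (SE), 9.96-fold, in Ito cells (adjusted p = 0.000838) and by 2.28 ± 0.57 (SE), 4.85-fold, in Kupffer cells (adjusted p = 0.0267). With all samples the values were 1.59 ± 0.85 (SE, adjusted p = 0.546) and 1.10 ± 0.85 (SE, adjusted p = 0.865). S100a4 was the one member called in all 3 TME comparisons without those channels.

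S100a6, or calcyclin, read 10.68, 11.15, 11.21 and 10.60 in EC and 11.54, 13.57, 11.24 and 11.54 in ET, where the lowest ET sample was only just above the highest EC sample. Its difference of 1.06 ± 0.69 (SE) had an adjusted p of 0.939, and without replicate 2 of all groups it was 0.61. IC gave 8.82, 9.02, 9.09 and 12.20 and IT gave 11.87, 12.89, 11.65 and 8.87, again with replicate 4 turned. The Ito difference was 1.54 ± 0.69 (SE, adjusted p = 0.472) and, without replicate 4, 3.16 ± 0.46 (SE), 8.93-fold (adjusted p = 0.000128). KC gave 11.19, 11.15, 11.87 and 12.62 and KT gave 12.20, 12.28, 12.18 and 10.98, with an adjusted p of 0.421 even without replicate 4 (difference 0.82).

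**Figure D3:**
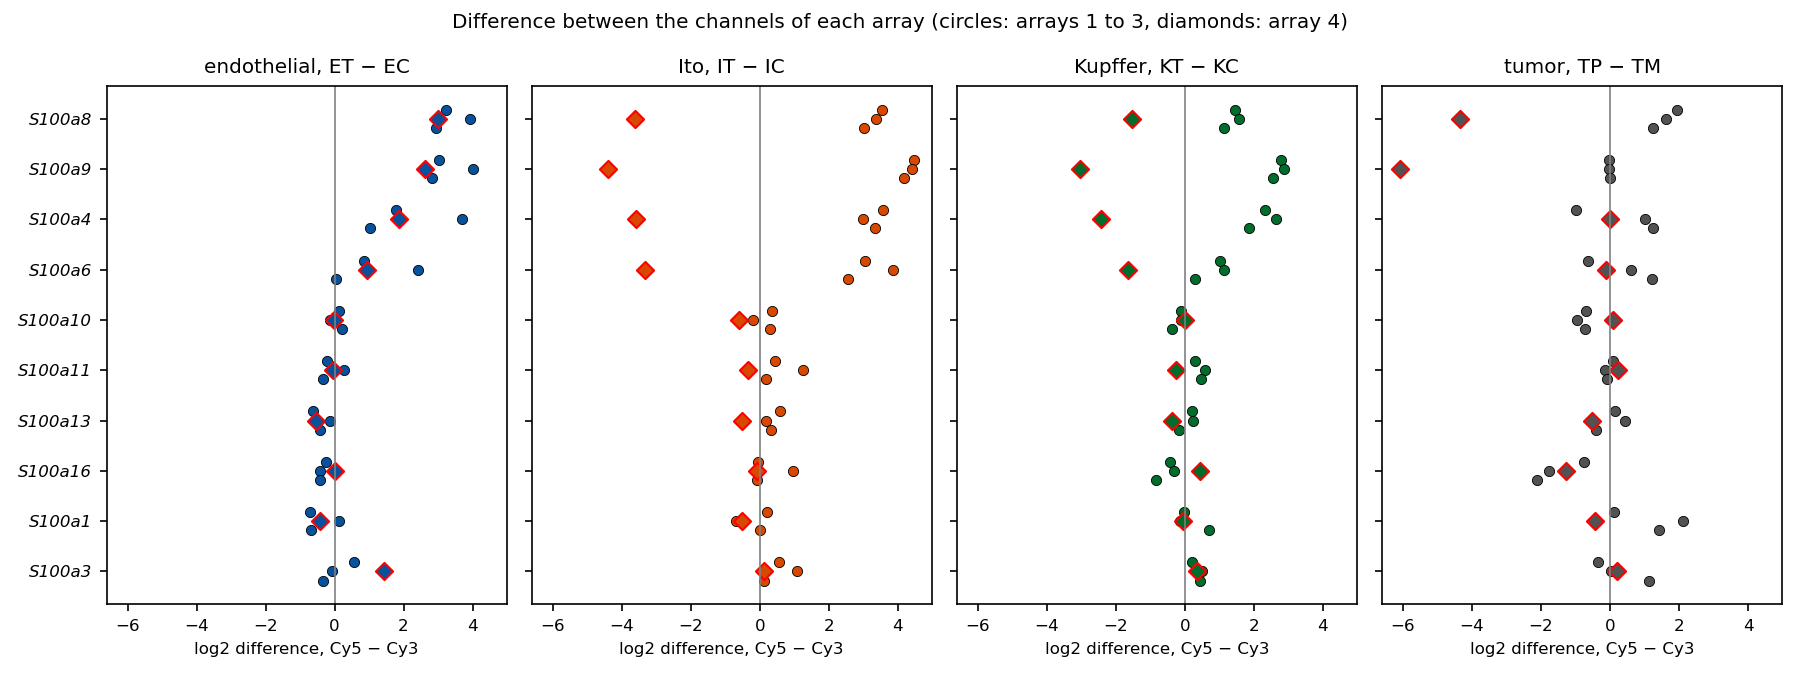
Log2 difference between the Cy5 and Cy3 channels of each array (x axis) for the 10 genes (rows) in endothelial, Ito, Kupffer and tumor arrays, with circles for arrays 1 to 3 and red-edged diamonds for array 4. In the Ito panel the S100a8, S100a9, S100a4 and S100a6 circles lie between 2.56 and 4.46 and their diamonds between -4.39 and -3.34.

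The other 6 genes had small TME differences. With all samples their differences lay between -0.43 and 0.47 over the 3 cell types, and without replicate 4 between -0.53 (S100a16 in Kupffer cells) and 0.62 (S100a11 in Ito cells), with 0 called. S100a13, which takes part in the export of the growth factor Fgf1, read 11.77, 11.51, 11.57 and 11.82 in EC and 11.14, 11.39, 11.15 and 11.28 in ET, lower without overlap, with a difference of -0.43 ± 0.16 (SE) and an adjusted p of 0.337. Among the 10 genes, S100a13 was the one lower in ET without overlap, and S100a4, S100a6, S100a8 and S100a9 were the 4 that were higher without overlap. Of all probes, 6% were lower and 7.05% higher without overlap in that comparison.

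The TME change was also compared between cell types by interaction terms. For the Ito against the endothelial change, limma called 0 members against 0.111% of all probes, 1 had an unadjusted p under 0.05 (S100a13) against 4.45% of all probes, and the methods' test called 0. For the Kupffer against the endothelial change it called 0, against 0.0808% of all probes, with 1 under an unadjusted 0.05 (S100a8) against 3.88% of all probes, and 0 by the methods' test. For Kupffer against Ito all 3 counts were 0, against 0.00359% of all probes by limma and 4.13% at an unadjusted p under 0.05. No share of all probes is given for the methods' test of these terms. Without replicate 4 of the Ito and Kupffer cells, S100a6 had an Ito minus endothelial difference of change of 2.10 ± 0.60 (SE, adjusted p = 0.0876). With TM replicate 4 left out as well, S100a13 was called for this term, at 0.80 ± 0.20 (SE, adjusted p = 0.0405), against 1.81% of all probes. Its TME difference was -0.43 in endothelial and 0.37 in Ito cells, neither of them called.

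Neutrophils and monocytes are known to hold calprotectin, and their genes were read from lists. On a list of 13 neutrophil genes, 0 were called in the TME comparisons with all samples, with medians of 1.76, 1.51 and 0.82 in endothelial, Ito and Kupffer cells, against 0.01, 0.00 and -0.00 over all probes. Without replicate 4 of the Ito and Kupffer cells, 2, 7 and 3 of the 13 were higher and 0 lower, against 1.64%, 7.66% and 3.85% of all probes called. Camp, a granule protein of neutrophils, was called in all 3, at 2.82 (adjusted p = 0.00046), 2.95 (adjusted p = 0.00066) and 2.04 (adjusted p = 0.023). Ly6g, the defining surface marker of mouse neutrophils, was well above background on all liver arrays, with means of 7.47 in EC and 7.68 in ET, while Cxcr2 was above background on 1 of 24. The summed neutrophil list ran from 14.01 to 14.35 in EC and 14.30 to 14.80 in ET. It was 14.71, 14.87, 15.69 and 14.34 in IC and 14.74, 15.25, 14.88 and 14.90 in IT. In Kupffer cells it was 15.01, 15.32, 16.00 and 14.35 in KC and 14.64, 14.76, 14.69 and 14.84 in KT. There the neutrophil sum was lower in the TME in replicates 1 to 3 without overlap, and turned in replicate 4. The brightest gene of the list, Csf3r, with group means from 14.10 to 15.11, made up most of those sums, and it was called in none of the 3 comparisons.

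Of 5 monocyte genes examined, 1 (Chi3l3), 2 (Ccr2 and Chi3l3) and 2 (Ccr2 and Chi3l3) were higher in the endothelial, Ito and Kupffer TME cells without replicate 4, against the same shares of all probes, and 0 with all samples. Their sums ran from 17.47 to 18.60 in EC and 17.41 to 17.85 in ET. They were 16.19, 16.66, 15.995 and 18.62 in IC and 18.23, 17.08, 18.05 and 16.73 in IT, and 17.14, 17.33, 16.97 and 18.27 in KC and 17.51, 17.72, 17.52 and 17.14 in KT. In Ito and in Kupffer cells the monocyte sum was thus higher in the TME in replicates 1 to 3 without overlap, and turned in replicate 4. The part of these cells in the S100 levels was not tested.

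The genes most like the members over the 24 liver channels were named by the highest Pearson r of log2 level, among probes well above background in at least 12 channels. For S100a8 they were Mmp8 (0.94), Camp (0.94), Acss1 (0.93), Sirpb1b (0.92) and Il1rl1 (0.92), and for S100a9 Camp (0.97), Lat2 (0.95), Nkg7 (0.95), Chi3l3 (0.95) and Ngp (0.94). Mmp8, Camp and Ngp encode neutrophil granule proteins. S100a4 had Gzme (0.96), Syt11 (0.93), Klrd1 (0.92), Stfa1 (0.91) and Snap47 (0.91), of which Gzme and Klrd1 are genes of cytotoxic lymphocytes. S100a6 had Nudt1 (0.97), Dnajc15 (0.96), Fam173b (0.96), Prdx2 (0.95) and Lgals1 (0.95). The channels share arrays, slides and the turned replicate 4, so these values describe likeness of pattern only.

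Between cell types of the same slide and dye, S100a16 set the endothelial cells apart. S100a16, a broadly expressed member, read 11.34, 11.71, 11.68 and 11.32 in EC against 9.08, 9.08, 9.04 and 9.10 in IC, and 11.10, 11.29, 11.25 and 11.33 in ET against 9.04, 10.05, 8.96 and 9.02 in IT. Neither pair overlapped. The IC minus EC difference was -2.44 ± 0.26 (SE), 5.42-fold (adjusted p = 6.2e-07), and the IT minus ET difference was -1.97 ± 0.26 (SE), 3.93-fold (adjusted p = 1.2e-05). Its second probe gave -1.76 (adjusted p = 3.42e-08) and -1.31 (adjusted p = 2.32e-06). Markers of other cells differed between these groups too. The hepatocyte sum was 15.09 to 15.33 in EC against 17.32 to 18.94 in IC, and 13.99 to 15.24 in ET against 17.46 to 18.70 in IT. The erythroid sum was 10.95 to 12.10 in EC against 15.17 to 17.10 in IC, and 8.63 to 14.88 in ET against 15.23 to 17.04 in IT. The Kupffer sum was 15.19 to 15.82 in EC against 16.39 to 18.68 in IC, and 15.97 to 16.60 in ET against 14.45 to 18.41 in IT. The endothelial sum was 15.71 to 15.85 in EC against 14.39 to 15.27 in IC, and 14.77 to 15.43 in ET against 13.65 to 15.34 in IT. The part of these cells in the differences between endothelial and Ito cells was not tested.

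S100a11, which binds annexin A1, was the second gene called for IC against EC, at 10.55, 10.46, 10.34 and 10.97 in IC and 11.50, 11.55, 11.56 and 11.52 in EC. All IC samples were below all EC samples, with a difference of -0.95 ± 0.19 (SE, adjusted p = 0.00138). Thus 2 of 10 members were called for IC against EC and 1 for IT against ET, against 9.89% and 8.26% of all probes. Without replicate 4 of the Ito and Kupffer cells S100a6 (-1.93 ± 0.43 SE, adjusted p = 0.00344) and S100a13 (-0.56 ± 0.15 SE, adjusted p = 0.0129) were also lower in IC, which made 4 of 10 against 11.7% of all probes. Without replicate 2, S100a11 was also lower in IT than in ET (-0.62, adjusted p = 0.0252). IT replicate 2 held the highest epithelial marker sum of its group (17.23, against 12.19 to 12.34 in the others) and its highest S100a16 and S100a11 levels, 10.05 and 11.70.

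Kupffer cells lay on the other slide, so their differences from endothelial and Ito cells cannot be told apart from a slide difference. S100a10, the p11 partner of annexin A2, read 13.60, 13.57, 13.81 and 13.54 in KC and 13.47, 13.47, 13.42 and 13.54 in KT, above every endothelial and Ito sample (11.98 to 12.97). The fitted differences were 1.34 for KC minus EC (adjusted p = 5.77e-06) and 0.90 for KT minus IT (adjusted p = 0.00125). S100a8 was 3.25 higher in KC than in EC (adjusted p = 0.00638), and the KC values of replicates 1 to 3 (10.56 to 10.98) fell among the ET values.

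**Figure D4:**
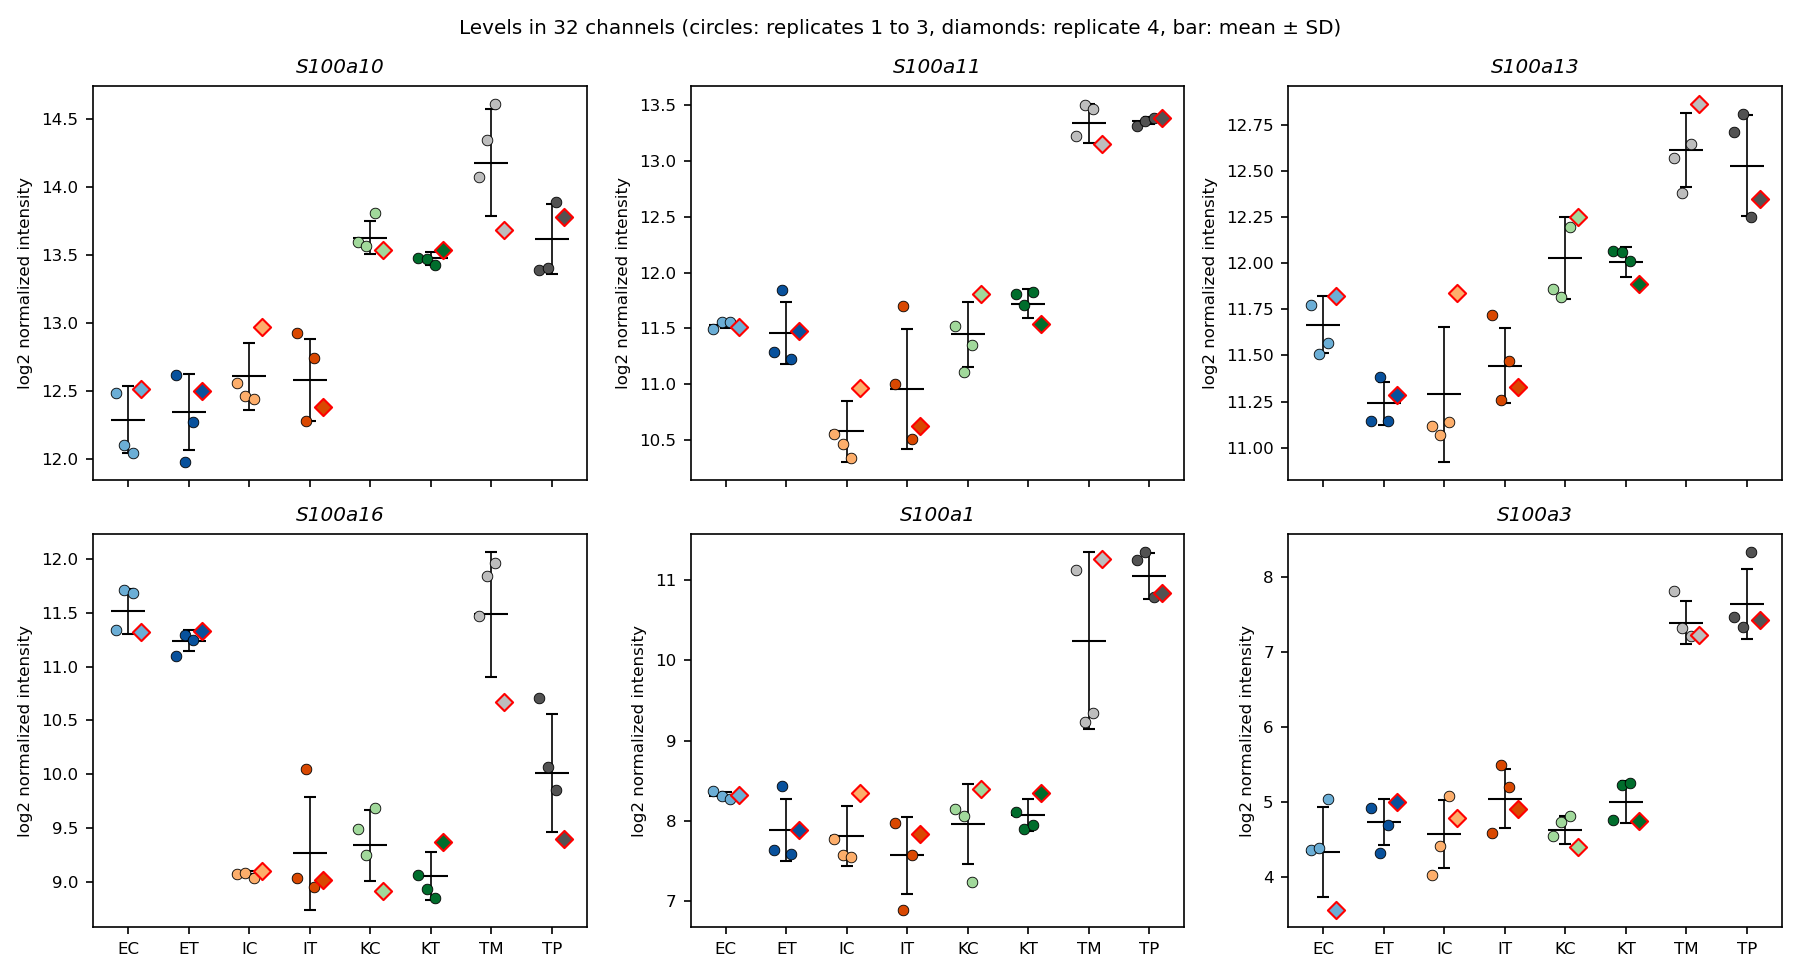
Log2 normalized intensity of S100a10, S100a11, S100a13, S100a16, S100a1 and S100a3 in the 8 groups (x axis), drawn as for the first 4 genes with circles for replicates 1 to 3, diamonds for replicate 4 and bars for the mean ± SD. The S100a16 panel has EC and ET between 11.10 and 11.71 and all Ito and Kupffer samples between 8.85 and 10.05.

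The tumor cells differed from the Kupffer cells on the same slide in the levels of most members. S100a4 read 18.08, 16.57, 16.45 and 17.59 in TM and 17.10, 17.58, 17.68 and 17.59 in TP, and no liver sample was above 11.96. The differences were 9.92 ± 0.85 (SE), 970-fold, for TM minus KC (adjusted p = 1.56e-10) and 9.13 ± 0.85 (SE), 562-fold, for TP minus KT (adjusted p = 6.39e-10). Without replicate 4 of the Ito and Kupffer cells they were 10.50 (1450-fold) and 8.54 (372-fold). S100a6 read 18.01, 16.73, 16.35 and 17.36 in TM and 17.38, 17.35, 17.57 and 17.24 in TP. Both groups were above all liver samples, whose highest value was 13.57. The S100a6 differences were 5.41 ± 0.69 (SE), 42.4-fold (adjusted p = 2.52e-07), and 5.47 ± 0.69 (SE), 44.4-fold (adjusted p = 1.83e-07).

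S100a3, known from hair follicles, and S100a1, known from heart and muscle, were also higher in both tumor groups without overlap. S100a3 gave 7.82, 7.32, 7.22 and 7.22 in TM and 7.47, 7.34, 8.34 and 7.43 in TP, while its liver levels of 3.57 to 5.49 were near background, and it exceeded KC by 2.77 ± 0.27 (SE, adjusted p = 2.32e-09) and KT by 2.64 ± 0.27 (SE, adjusted p = 4.66e-09). S100a1 gave 11.12, 9.23, 9.35 and 11.26 in TM and 11.24, 11.35, 10.78 and 10.84 in TP, against 6.90 to 8.43 in the liver samples. Its differences were 2.28 ± 0.35 (SE, adjusted p = 5.12e-06) and 2.98 ± 0.35 (SE, adjusted p = 6.15e-08).

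S100a11 gave 13.22, 13.50, 13.47 and 13.15 in TM and 13.32, 13.36, 13.39 and 13.38 in TP, all above the liver maximum of 11.84, with differences of 1.89 ± 0.19 (SE, adjusted p = 3.99e-09) and 1.64 ± 0.19 (SE, adjusted p = 4.41e-08). Smaller differences were called for S100a13, at 0.58 ± 0.16 (SE, adjusted p = 0.00388) for TM minus KC and 0.52 ± 0.16 (SE, adjusted p = 0.00853) for TP minus KT. The TP minus KT call of S100a13 was lost without replicate 1 (0.48, adjusted p = 0.0656) and without replicate 2 (0.45, adjusted p = 0.0567). S100a16 exceeded KC by 2.14 ± 0.26 (SE, adjusted p = 1.07e-07) in TM and KT by 0.95 ± 0.26 (SE, adjusted p = 0.00369) in TP, and the latter call was lost without replicate 1 (0.72, adjusted p = 0.0864). S100a10 gave 14.07, 14.35, 14.61 and 13.68 in TM, and its TM minus KC difference of 0.55 ± 0.18 (SE, adjusted p = 0.0174) was lost when only those 2 groups were fitted (adjusted p = 0.0791) and without replicate 1 (0.0587), 2 (0.104) or 3 (0.0937).

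The calprotectin genes went the other way. S100a8 read 5.05, 4.89, 4.32 and 8.30 in TM, where it was well above background on 1 of 4 arrays, and on 3 of 4 in TP. Its fitted TP minus KT difference was -5.99 ± 0.85 (SE, adjusted p = 1.25e-06). The fitted TM minus KC difference of -5.45 (adjusted p = 5.95e-06) rests on TM readings of which 3 of 4 were not well above background, so it is no measured fold. S100a9 was well above background on 1 of 4 TM arrays, replicate 4, and on 0 of 4 TP arrays. Its fitted TM minus KC difference of -6.96 (adjusted p = 4.34e-05) is no measured fold for the same reason. Without replicate 4 of the Ito and Kupffer cells it was -6.20 (adjusted p = 2.96e-05). Without TM replicate 4 no TM reading of either gene was well above background, and S100a8 was at least 23.0-fold and S100a9 at least 22.8-fold lower in TM than in KC. With KC replicate 4 left out too, the bounds were 17.5-fold and 13.4-fold. These bounds use the normexp and loess values, not the deposited ones. A dim reading below the lowest well-above-background signal of its channel was raised to that signal. In TP S100a9 was at least 51.0-fold lower than in KT by the same rule, and at least 81.1-fold lower without KT replicate 4. On the deposited scale its means were 2.06 in TP and 11.84 in KT (limma adjusted p = 2.25e-07). TM replicate 4 also had the highest marker sums of its group for endothelial cells (8.52, against 6.19 to 7.21), Ito cells (16.80, against 14.25 to 14.96), Kupffer cells (9.93, against 7.66 to 9.69) and monocytes (15.34, against 12.96 to 14.83). Its neutrophil sum of 14.56 lay within the range of the other TM samples, 14.46 to 14.94. Of the 13 neutrophil genes, 5, Ly6g among them, were not well above background on any TM array. The part of these cells in the S100a8 and S100a9 levels of TM replicate 4 was not tested.

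In all, 10 of 10 members were called for TM against KC and 9 of 10 for TP against KT, where 39.4% and 43.6% of all probes were called. The counts were also 10 and 9 without replicate 4 of the Ito and Kupffer cells. Of these, 8 were higher and 2 lower in TM, against 23.3% and 16.2% of all probes, and 7 were higher and 2 lower in TP, against 25.7% and 17.8%. The median member difference was 2.02 and 1.30, against 0.08 and 0.10 over all probes. Without overlap, 7 members were higher and 2 lower in each comparison, against 22.8% and 13.9% of all probes for TM and KC and 27.3% and 18% for TP and KT.

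**Figure D5:**
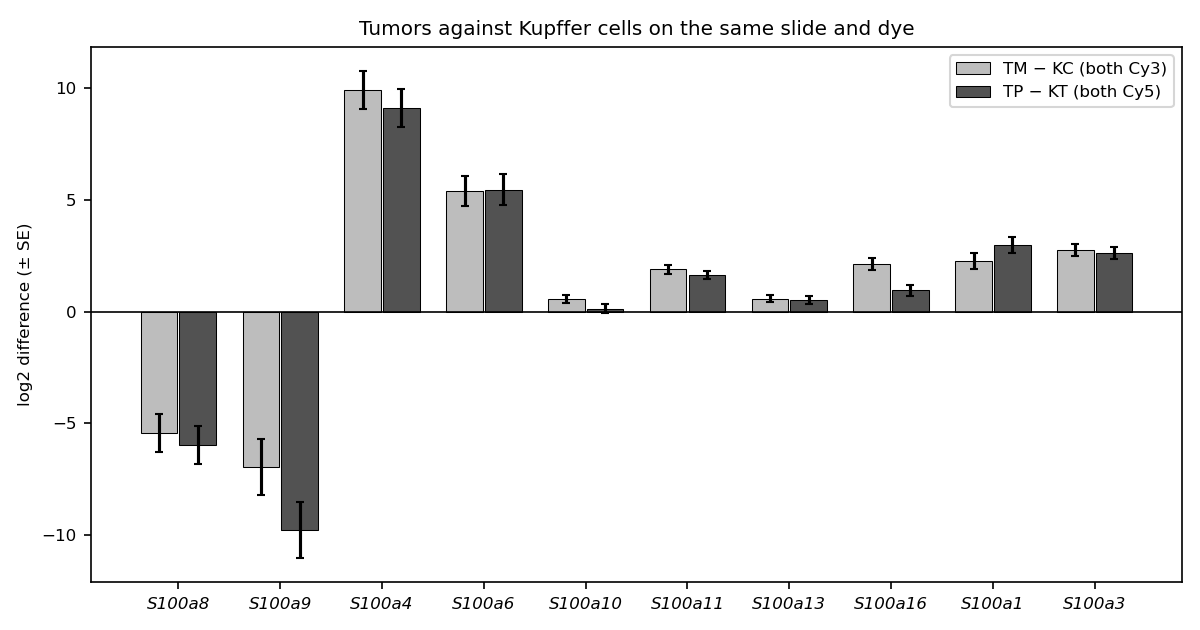
Log2 difference ± SE of each member for TM minus KC (light bars, both Cy3) and TP minus KT (dark bars, both Cy5), 4 samples a group. S100a4 reaches 9.92 and 9.13 and S100a8 -5.45 and -5.99, and the dark S100a9 bar is a fitted value from TP samples that were not well above background. The light S100a8 and S100a9 bars are fitted values from TM samples of which 3 of 4 were not well above background.

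Between the tumor groups S100a16 was the member called, 1 of 10 against 3.01% of all probes. It read 11.47, 11.84, 11.96 and 10.67 in TM and 10.71, 10.07, 9.85 and 9.40 in TP, with an overlap through TM replicate 4. The TP minus TM difference was -1.48 ± 0.26 (SE), 2.78-fold (adjusted p = 0.00123). Its second probe gave 10.59 to 11.12 in TM and 10.20 to 11.16 in TP, a difference of -0.18 (adjusted p = 0.656). The call was lost without replicate 3 (-1.27, adjusted p = 0.0673) and when only TM and TP were fitted (adjusted p = 0.287), so it rests on this probe and on the shared spread. Without TM replicate 4, S100a10 (-0.73, adjusted p = 0.0174) and S100a1 (1.15, adjusted p = 0.0448) were called too, against 6.43% of all probes. For S100a4 the difference was 0.31 ± 0.85 (SE, adjusted p = 0.958) and for S100a6 0.27 ± 0.69 (SE, adjusted p = 0.953).

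The order of group means differed between members. S100a8 ran KT, ET, KC, IT, IC, EC, TP, TM from high to low, and only IC and EC, and EC and TP, did not overlap as neighbours. For S100a9 the order was KT, IT, ET, KC, IC, EC, TM, TP, and every pair of neighbours overlapped. The order of the liver groups changed without replicate 4 of the Ito and Kupffer cells. The S100a8 means were then 12.09 in KT, 11.81 in IT, 11.11 in ET, 10.70 in KC, 8.50 in IC and 7.84 in EC. The S100a9 means were 12.60 in IT, 12.53 in KT, 11.40 in ET, 9.79 in KC, 8.29 in EC and 8.24 in IC. The order of TM and TP has no meaning for these 2 genes, since most TM readings of both and all TP readings of S100a9 were not well above background. For S100a1, S100a3, S100a4, S100a6 and S100a11 the first places were TP and TM, which overlapped each other and none of the liver groups. S100a13 had TM and then TP, which also overlapped none of the liver groups. Its lowest TP sample (12.2485) was barely above the highest KC sample (12.248). S100a10 had TM highest, followed by KC, which it overlapped, and S100a16 had EC highest, followed by TM.

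The receptors and partners of the family were read from fixed lists. Of 5 receptors that S100 proteins bind (Ager, Tlr4, Bsg, Nptn and Cd36), 0 were called in any TME comparison by limma with all samples. Ager was well above background in 0 of the 32 channels. Tlr4, the lipopolysaccharide receptor, had means from 5.44 to 5.67 in the liver groups and was not well above background in any of the 8 tumor channels. Without replicate 4, Nptn was 1.14 higher in KT than in KC (adjusted p = 0.0019). In TM against KC, 1 of the 5 was higher (Bsg, 0.63, adjusted p = 0.0031) and 2 were lower (Tlr4, and Cd36 at -2.86, adjusted p = 0.012), against 23.3% and 16.2% of all probes.

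Among 5 annexins, Anxa1, the partner of S100a11, was lower in ET than in EC (-1.15, adjusted p = 0.0028) and higher in TM than in KC (2.65, adjusted p = 3.7e-11), where S100a11 was higher too. Anxa2, the partner of S100a10, had TME differences of 0.36, 0.59 and 0.01, none called, and 0.91 in Ito cells without replicate 4 (adjusted p = 0.021). Anxa6 was lower in TM than in KC (-4.71, adjusted p = 6.1e-09). In all, 1 annexin was higher and 3 were lower in TM than in KC, against 23.3% and 16.2% of all probes. Of 4 further partners (Ahnak, Cacybp, Myh9 and Fgf1), 0 were called in the TME comparisons with all samples, and Myh9, the partner of S100a4, was lower in TM than in KC (-1.06, adjusted p = 0.0015). Fgf1, exported with S100a13, was 1.47 higher in IT than in IC without replicate 4 (adjusted p = 0.023).

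The array also carried S100a2, S100a5, S100a7a, S100a14, S100b, S100g and S100z, and S100pbp, which encodes a binding protein and is no S100 protein. Of these 8 genes, 0 were called in the TME comparisons with all samples. In TM against KC 5 were higher (S100a2, S100a5, S100a7a, S100a14 and S100b), against 23.3% of all probes, and in TP against KT 5 were higher (S100a2, S100a5, S100a7a, S100b and S100z), against 25.7%. S100z was not well above background in any of the KT, TM or TP channels, although it was also called between TP and TM, and S100b was above it on 1 of 4 TM arrays, 1 of 4 TP arrays and 0 of the KC and KT arrays. No fold is given for either gene.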

How the data were processed

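RNA of 32 samples was hybridized in pairs to 16 two-colour Agilent arrays. Per the labels and methods, the authors read the scanned images with Feature Extraction (10.7.3.1 per the file headers) and quantile-normalized the channels as single samples. The deposited value table holds linear intensity, and its columns followed the quantile-normalized processed signals of the scanner files. Log2 of it was taken here, with no pseudocount. Flags (well above background, saturated), gene names and probe sequences came from the scanner files. One limma fit (version 3.58.1 in R 4.3.3) held all 8 groups, with Benjamini-Hochberg adjustment over 55681 probes. A gene with several probes was read by the most variable one. Named genes were the 10 members, genes of the listed partners and cell type markers, and the 5 most correlated genes of a member. Members and lists were chosen with earlier results of these data known. A gene of the marker lists is not reported here and was left out of its list's counts and sums. The number of arrays limits the precision, and the labels do not say whether replicates came from separate mice, although the methods call them biological. The fit was tested on simulated data. Alternatives were Agilent processed signals, normexp with quantile or loess, 75th percentile scaling, a filter on dim probes, the methods' probe-by-probe test and threshold, fewer samples, and a block for the shared array. Python 3.11.15 with pandas 2.3.3 drew the tables.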

Additional observations from a re-analysis of the deposited data

Results flagged for a closer look

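In 80 groups of 4 samples (10 members in 8 groups), 16 held 1 sample far from the other 3 by Dixon's criterion, which flags about 1 in 20 such groups by chance. In 11 of the 16 it was a replicate 4 of the Ito or Kupffer cells or of a tumor group. The TP minus TM difference of tumor array 4 correlated at -0.0652 with the mean of the other 3 arrays, and that of array 1 at -0.196. On arrays 1 to 4 the difference was 1.95, 1.64, 1.24 and -4.36 for S100a8, most of whose TM readings were not well above background. S100a1 had 0.12, 2.12, 1.43 and -0.43, while S100a16 was lower in TP on all 4 arrays. Whether labels or dyes were exchanged on the tumor arrays was not tested. High values in IC replicate 4 were 12.2 for S100a6, 12.04 for S100a8, 13.2 for S100a9 and 11.84 for S100a13, and S100a9 was high in KC replicate 4 at 12.84. Low values in KT replicate 4 were 6.56 for S100a4, 10.98 for S100a6, 10.73 for S100a8 and 9.78 for S100a9. S100a9 was high in TM replicate 4 (8.82) and in TP replicate 4 (2.74, not well above background). ET replicate 2 was high for S100a4 (11.96) and S100a6 (13.57), and IT replicate 2 for S100a16 (10.05). S100a3 was high in TM replicate 1 (7.82) and TP replicate 3 (8.34).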

How the results depend on the processing

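Of 1900 differences of single members under alternatives, 1736 kept their direction and side of the threshold, 22 lost and 50 gained the call, 92 changed sign with neither value called, and 0 reversed. Members called for ET against EC were 0 in the fit of all samples, 1 (S100a8) with normexp and quantile, with normexp and loess, with the filter on dim probes and without TM replicate 4, 2 with only the groups compared, with the methods' probe-by-probe test and without replicate 4 of the Ito and Kupffer cells, and 3 when TM replicate 4 was left out too. Leaving out each replicate gave 0 to 2. For IT against IC the count was 4 without replicate 4 of the Ito and Kupffer cells and with TM replicate 4 out too, 1 after subtraction of the TP minus TM difference (S100a16), and 0 to 4 with each replicate left out. For KT against KC it was 1 and 2 in those fits and 0 to 3 with each replicate left out. For TP against TM it was 0 with only the groups compared, with the methods' probe-by-probe test and at an adjusted p under 0.001 with 4-fold, 3 without TM replicate 4 alone or with the Ito and Kupffer replicates, and 0 to 3 with each replicate left out. For IC against EC it was 4 without replicate 4 of the Ito and Kupffer cells, with or without TM replicate 4, 1 at the stricter threshold, and 2 to 4 with each replicate left out. For IT against ET it was 0 at the stricter threshold, 2 without all those replicates 4, and 1 to 2 with each replicate left out. The difference of change in Ito against endothelial cells gained 1 call (S100a13) without those replicates. TM against KC gave 9 to 10 and TP against KT 7 to 9 with each replicate left out, and 7 and 6 at the stricter threshold. Without replicate 4 of the Ito and Kupffer cells, 1.64% of all probes were called for ET against EC and 7.66% for IT against IC. In that fit the shares were 3.85% for KT against KC and 11.7% for IC against EC. Without TM replicate 4, 6.43% of all probes were called for TP against TM. The methods' test called 4.01% for ET against EC. For the other alternatives of this section no share of all probes is given. The counts of this section show only how the number of called members moved. Leaving out TM replicate 4 was chosen after seeing the data. Replicate 4 of the Ito and Kupffer cells stands apart by its own TME minus control difference, so leaving it out is not independent of the data either. Same-numbered samples of a pair of groups shared an array, and their deviations correlated at 0.0513 to 0.403 in endothelial, -0.645 to 0.232 in Ito, -0.569 to 0.126 in Kupffer and -0.167 to 0.183 in tumor cells. Since no pair of groups had all 4 values over 0.1, the numbers were not taken to pair the samples. In Ito and Kupffer cells the turned replicate 4 enters the group means, so this check cannot settle pairing there. With the shared array as replicate block (consensus correlation 0.0783) the counts stayed at 0, 0, 0 and 1 for the 4 channel pairs. The dye cannot be separated from condition, and probes near background limit S100a3 in liver cells and S100a8 and S100a9 in tumor cells. The causes of these changes were not tested.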
